A study of Mus musculus with 9 samples.

Results

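Chromosome 11 of the mouse, which carries Trp53, was examined in 9 mammary tumours by DNA copy number. The probes were chosen as all those the array files place on chromosome 11, except those in 69.3 to 69.5 Mb and in 70.98 to 71.13 Mb. The first of these intervals is here called the Trp53 interval. It holds a run of low probes taken to mark Trp53, although no annotation in the files links a probe to a gene. Of 51368 probes on the chromosome, 122 and 55 were left out for these intervals, and 51191 remained of 963261 in the whole series. The remaining probes began at 3030764 and ended at 121809961, with a median spacing of 1747 bp. Positions are those of the files, which name no genome build. The chromosome was picked because its tumour to pool ratios had been seen to be low over most of its length and high from position 109000000 onwards. Members were thus selected on the same ratios that are shown here, and the ratios are given as a description, without a test.

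The mice carried floxed Rb and p53 alleles (Rbf/f;p53f/f) on a mixed strain background, and Cre recombinase was supplied by an MMTV-Cre transgene or by Ad-Cre. The MMTV promoter is active in mammary epithelium among other cells, and the Ad-CMVcre of the labels is an adenovirus that carries Cre under a viral promoter. Each tumour had 1 array, on which its Cy5-labelled DNA competed with a Cy3-labelled pool of tail DNA from mice without tumours. The MMTV-Cre group had 7 tumours: 1 of a nulliparous and 1 of a parous animal, and 5 transplants. The Ad-Cre group had 2 tumours, both transplants. All 9 tumours are labelled as deleted for Rb and p53. The labels call the tumours independent, give no ages, and do not say which host received a transplant, so p-values measure the spread between these tumours.

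Array comparative genomic hybridisation reads the amount of tumour DNA at each probe relative to normal DNA. A loss of 1 of 2 copies in every cell would lower the log2 ratio by 1, and normal cells in a tumour, or gains that raise the whole genome, bring the ratio closer to 0. Mouse chromosome 11 has its centromere at the low-numbered end and corresponds in its distal part to the whole of human chromosome 17. Trp53, the tumour suppressor that responds to DNA damage, lies on it, and so do Nf1, Brca1 and Erbb2. Loss of a whole chromosome, of an arm, and amplification of a stretch are separate kinds of event, and a chromosome that switches many times between few copy levels shows breaks at each switch.

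On chromosome 11 the median pool signal of an array was between 1090 and 1170 intensity units, and the raw pool signal was 22.7 to 32.6 times its local background. The raw tumour signal was 13.7 to 19.2 times its background. Probe noise, taken from differences between neighbouring probes, was 0.15 to 0.18 on the log2 scale, and 51130 of the probes were measured on all 9 arrays. Precision is limited by there being 1 array per tumour. The Trp53 run is the 4 neighbouring probes of the Trp53 interval with the lowest mean ratio over these 9 tumours. Its low level thus follows in part from that choice and is no independent check of the deletion. The run lay at -1.67 to -0.73 against its flanks on the log2 scale in 8 tumours. The library labelled MMTV-Cre transplant 2 had the run at -0.09 against its flanks, unlike the other 8 tumours. This is at odds with its label if the run lies in the deleted part of Trp53, which the files do not show. Means over all tumours of block levels, shares and breakpoints, and group differences of block levels, are given below with and without that library. Means of named windows and low stretches are given only with it.

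The low level over most of chromosome 11 was seen in 1 tumour of 9, MMTV-Cre transplant 3, and a high distal level in that tumour and also in the library that is labelled MMTV-Cre transplant 2. Centromeric of the Trp53 interval the median log2 ratio was -0.33 in MMTV-Cre transplant 3. The next values were -0.08 in the library labelled MMTV-Cre transplant 2, -0.06 in MMTV-Cre transplant 4 and -0.02 in Ad-Cre transplant 2. The other 5 tumours were above 0: the nulliparous one was at 0.14 and the parous one at 0.03, with 0.05 in MMTV-Cre transplant 1, 0.04 in MMTV-Cre transplant 5 and 0.03 in Ad-Cre transplant 1. The 9 tumours averaged -0.02 ± 0.13 (SD, n = 9), a mean within the spread of 0. Leaving out MMTV-Cre transplant 3 moved it to 0.01 ± 0.07 (SD, n = 8), and leaving out the library labelled MMTV-Cre transplant 2 kept it at -0.02 ± 0.14 (SD, n = 8).

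Between the Trp53 interval and position 109000000 the level was -0.32 in MMTV-Cre transplant 3 and between -0.02 and 0.19 in the other 8 tumours. The mean of this block was 0.02 ± 0.15 (SD, n = 9), 0.07 ± 0.08 (SD, n = 8) without MMTV-Cre transplant 3 and 0.03 ± 0.16 (SD, n = 8) without the library labelled MMTV-Cre transplant 2. With centring on the mode it was -0.0043. It stood above the centromeric block in 9 of 9 tumours, by 0.05 ± 0.04 (SD, n = 9), or 0.04 ± 0.04 (SD, n = 8) without that library, and by at most 0.13, in MMTV-Cre transplant 5.

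In the distal block, from position 109000000 to the end, the level was 1.07 in MMTV-Cre transplant 3, or 2.11 times the pool. The next tumours were the library labelled MMTV-Cre transplant 2 at 0.45, Ad-Cre transplant 1 at 0.21 and MMTV-Cre transplant 5 at 0.18. MMTV-Cre transplant 1 was at 0.09, the nulliparous tumour at 0.08 and the parous tumour at 0.03. MMTV-Cre transplant 4 and Ad-Cre transplant 2 were at 0.00 and -0.01. The mean was 0.23 ± 0.35 (SD, n = 9), a spread wider than the mean, and with a normexp background correction it was 0.36. It was 0.13 ± 0.15 (SD, n = 8) without MMTV-Cre transplant 3 and 0.21 ± 0.36 (SD, n = 8) with the library labelled MMTV-Cre transplant 2 left out.

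The distal block exceeded the rest of the chromosome by 1.40 in MMTV-Cre transplant 3 and by 0.50 in the library labelled MMTV-Cre transplant 2. The other 7 tumours ranged from -0.09 in the nulliparous tumour to 0.16 in Ad-Cre transplant 1. Over all tumours the difference was 0.24 ± 0.47 (SD, n = 9), with 0.20 ± 0.49 (SD, n = 8) when the library labelled MMTV-Cre transplant 2 was left out and 0.09 ± 0.18 (SD, n = 8) without MMTV-Cre transplant 3.

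**Figure D1:**
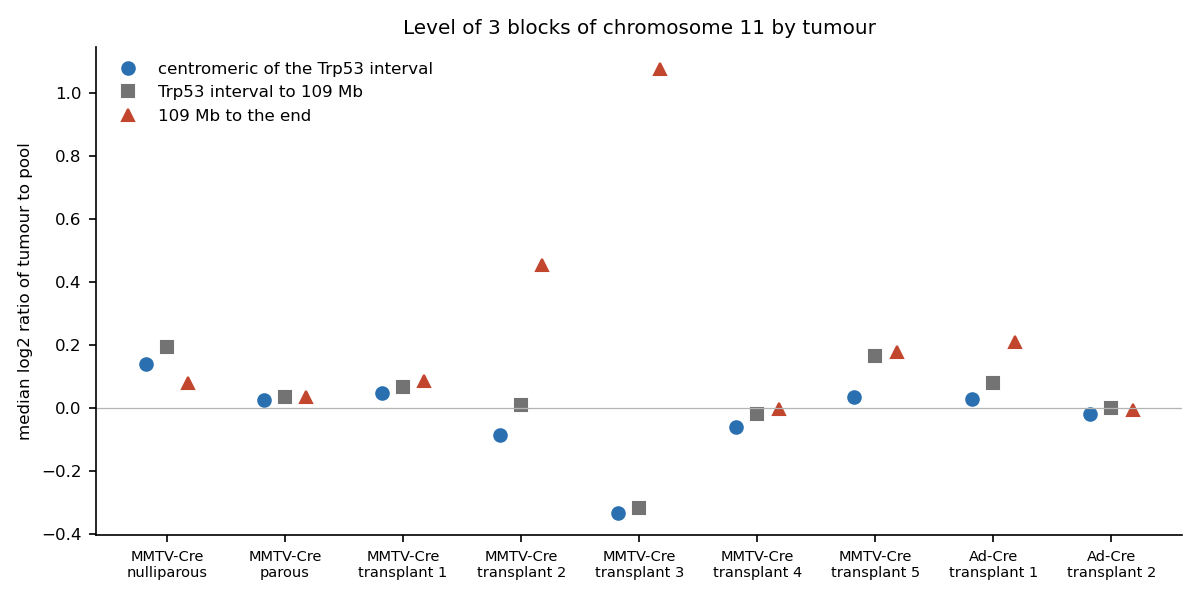
The vertical axis is the median log2 ratio of tumour to pool, and the horizontal axis lists the 9 tumours. Circles stand for the block centromeric of the Trp53 interval, squares for the block from there to position 109000000 and triangles for the distal block. MMTV-Cre transplant 3 has the lowest circle and square (-0.33 and -0.32) and the highest triangle (1.07).

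The chromosome was next divided into segments of equal level, with segments of 0.25 or more called gained, those of -0.25 or less called lost, and steps of 0.2 or more between neighbours counted as breakpoints. In MMTV-Cre transplant 3 the segments made 5 regions, described from the centromere to the telomere. They sum to 96.4 Mb lost and 18.8 Mb gained, or 81.2% and 15.8% of the segmented length.

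The first region of MMTV-Cre transplant 3 was an alternating centromeric end, chr11:3030764-17323448, of 11 segments. Of these, 7 were gained over 7.33 Mb and 4 were lost over 6.94 Mb. It opened with a gain at 0.57 up to 5891238, a step up to 1.06 over 0.162 Mb and a return to 0.58 up to 7002257. Then it fell to -0.37 up to 11334094 and switched between gained and lost at each further boundary, with gains at 0.42 to 0.52 and losses at -0.29 to -0.41. The shortest of these segments was a loss of 30.1 kb over 20 probes, chr11:11705949-11736041, between gains of 0.52 and 0.42.

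The second region was a lost stretch, chr11:17329303-103359891, of 86 Mb that includes both sides of the Trp53 interval. All 7 of its segments were called lost, at -0.44 to -0.32, or 0.74 to 0.80 times the pool. The longest, chr11:43076044-90176921, ran for 47.1 Mb at -0.34 over 22375 probes and was the longest called segment of any tumour on this chromosome. The distal end of the lost stretch is set by a gain of only 10 probes at 103363054. Beyond that gain the level was again -0.33, from 103387667 to 104188608.

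The third region, chr11:103363054-109194541, alternated again over 5.83 Mb, with 4 gained segments that covered 0.554 Mb in all. The widest of the 4 was chr11:107822410-108187547 at 0.53, between segments at -0.20 and -0.24. The gains at 103363054 and 104189758 were 23.1 and 70.6 kb long. The first of them overlaps a short locus that was also high in other tumours and is described further on.

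The fourth region was the amplified stretch, chr11:109197206-120749871, 11.6 Mb long with 10.9 Mb gained. It held segments at 1.074, 1.102 and 1.116 that were 2.17, 4.39 and 4.03 Mb long, or 2.11, 2.15 and 2.17 times the pool. The stretch was not continuous: from 111376808 to 112190495 the level fell to -0.28, rose to 0.46 and fell to -0.28 again. A further dip to 0.24 at chr11:116596801-116631530 covered 15 probes. The highest level of the chromosome in any segment of over 50 probes, 1.83 or 3.57 times the pool, was in its last 82.7 kb, chr11:120667182-120749871, over 55 probes with a standard deviation of 0.63 between probes.

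The gain did not reach the end of the chromosome in MMTV-Cre transplant 3. The fifth region, chr11:120752497-121809961, was lost at -0.33 over 530 probes, a level within 0.01 of the longest lost segment. The step into it, a drop by 2.16, was the largest on the chromosome in this tumour.

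**Figure D2:**
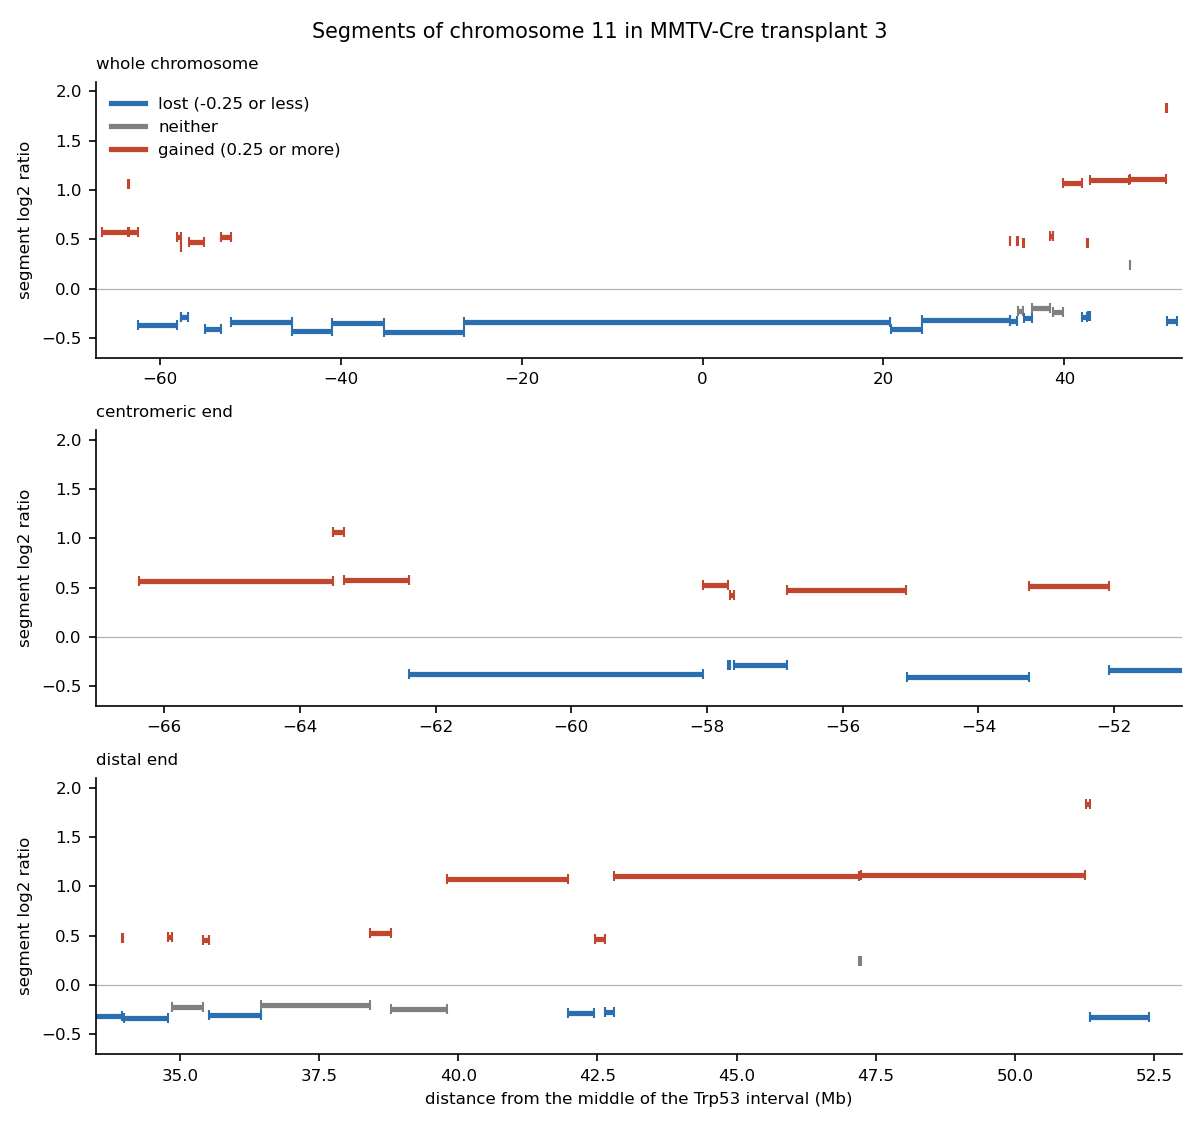
The vertical axis is the median log2 ratio of each segment of MMTV-Cre transplant 3 and the horizontal axis the distance from the middle of the Trp53 interval in Mb. The upper panel shows the whole chromosome and the lower panels its ends, with segments coloured by call and small upright marks at their ends. The distal gain near 1.1 is interrupted and ends before the telomeric end, which lies at -0.33.

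The segments of MMTV-Cre transplant 3 lay at few levels. The 16 lost segments were between -0.44 and -0.28, with a median of -0.33, or 0.79 times the pool. The 11 gained segments below 1 were between 0.42 and 0.58, with a median of 0.49, or 1.40 times the pool. The 5 gained segments at 1 or more were at 1.06 to 1.12 and, for the last, at 1.83. Only 4 segments fell between the calls, at -0.24 to 0.24. Of 28 steps of 0.2 or more, 14 went up and 14 went down, with a median size of 0.80, and 21 of them were between 0.7 and 1.

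In 18 of the boundaries of MMTV-Cre transplant 3 a lost segment met a gained segment directly. These include both edges of the 10-probe gain at 103363054, a short locus also high in other tumours, whose flanks there were not called lost. No other tumour had such a switch on chromosome 11, and MMTV-Cre transplant 3 had none on its other autosomes. Its other autosomes were lost over 7.93% and gained over 6.87% of their length. Chromosome 11 held 28 of its 87 autosomal breakpoints, or 32.2%, among them the edges of short loci near 103363054 and 116603960. The next chromosome of this tumour, chromosome 4, held 12. Such switching is not particular to chromosome 11 in the series, since other tumours had up to 7 such switches on a single other autosome, in Ad-Cre transplant 2.

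Over the same 5 regions none of the other 8 tumours repeated the whole pattern of MMTV-Cre transplant 3. This includes MMTV-Cre transplants 4 and 5, which were scanned on the same day. At the alternating centromeric end of MMTV-Cre transplant 3, where its median was 0.40, the other 8 tumours were between -0.07 and 0.16. Along its lost stretch, at -0.35, they were between -0.06 and 0.18, with a median of 0.04. In its alternating stretch before the amplified one, at -0.23, they were between -0.03 and 0.46. In its amplified stretch, where it stood at 2.14 times the pool, they were between -0.01 and 0.46, with a median of 0.08. The highest there was the library labelled MMTV-Cre transplant 2, which was also called gained. At the telomeric end, where MMTV-Cre transplant 3 was at -0.33, the other 8 tumours were between -0.02 and 0.42. The library labelled MMTV-Cre transplant 2 was again the highest.

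**Figure D3:**
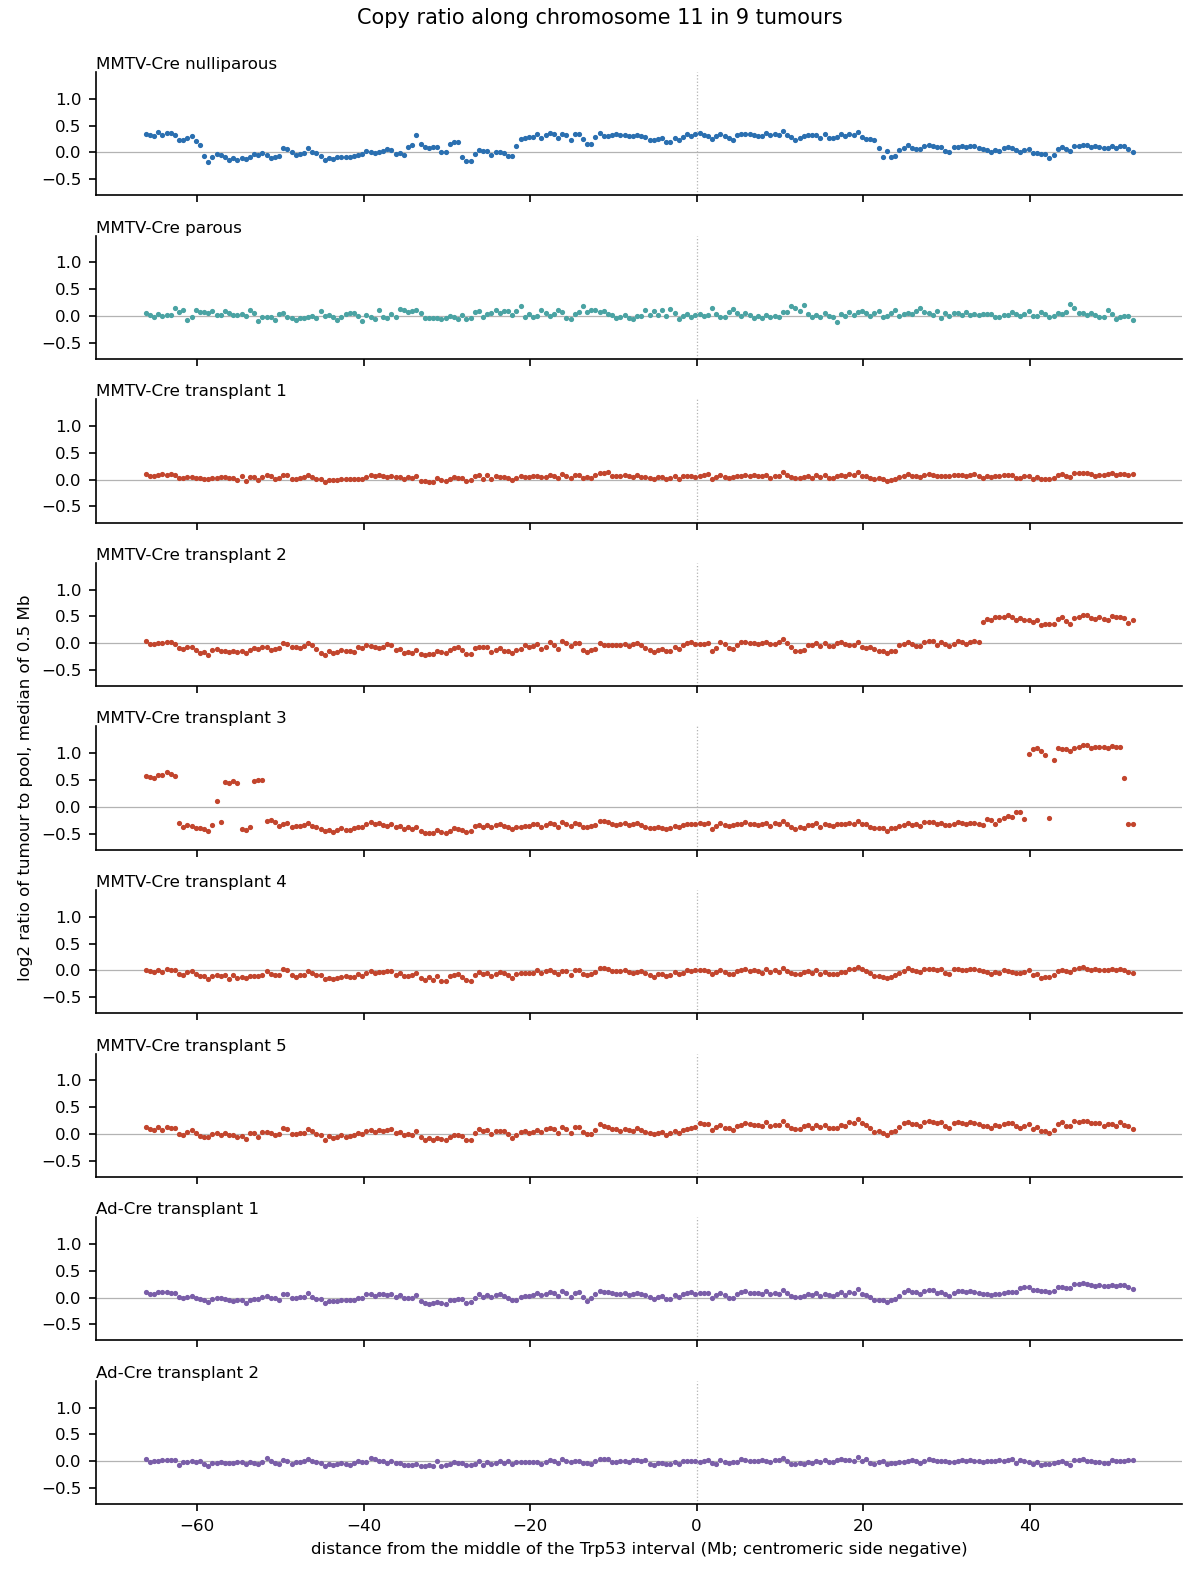
Each panel is 1 tumour, with the median log2 ratio of tumour to pool over 0.5 Mb on the vertical axis and the distance from the middle of the Trp53 interval in Mb on the horizontal axis. Colours mark the groups and the dotted line the Trp53 interval. MMTV-Cre transplant 3 is low over most of the chromosome, and the distal rise of the library labelled MMTV-Cre transplant 2 begins before that of MMTV-Cre transplant 3.

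The distal gain of the library labelled MMTV-Cre transplant 2 was a simpler one. It began at 103567044 with a step up by 0.45 and ran to 121719340 as segments at 0.45 to 0.52, or 1.36 to 1.43 times the pool, broken by 1 short segment at 2.09. It thus started 5.63 Mb before the amplified stretch of MMTV-Cre transplant 3 and, unlike it, reached the end of the measured probes. Gained segments of at least 100 probes covered 18.1 Mb in this library. The only lost segment was chr11:74177567-74199333, 21.8 kb at -0.72.

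The nulliparous tumour had the largest gained share of chromosome 11, 35.5%, in 5 segments at 0.31 to 0.34, or 1.24 to 1.27 times the pool. The longest was chr11:67395698-91281500, 23.9 Mb at 0.31 over 11940 probes, which spans the Trp53 interval. The other 4 were chr11:3030764-6996303, chr11:35279132-35903494, chr11:47803431-55736795 and chr11:57070475-62809950. Its largest step was a drop by 0.38 at 91290549. No segment of this tumour was lost, and its distal block, at 0.08, was below the rest of its chromosome.

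Ad-Cre transplant 1 rose in small steps towards the telomere without passing the threshold for a gain. Its level was 0.07 from 103391314, 0.17 from 107774507 and 0.23 from 114402029 to the end. MMTV-Cre transplant 5 stayed between -0.08 and 0.22 in all segments of at least 100 probes. No segment of at least 100 probes was called in MMTV-Cre transplants 1 and 4, Ad-Cre transplant 2 or the parous tumour, and gained segments covered 0.0601 to 0.105% of their chromosome.

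The Trp53 side was read from 1 Mb on each side of the interval, 571 probes before it and 566 after it. In the nulliparous tumour the flanks were both high, at 0.33 and 0.34. In MMTV-Cre transplant 3 they were both low, at -0.31 and -0.31. In MMTV-Cre transplant 5 they were at 0.12 and 0.19, in Ad-Cre transplant 1 at 0.09 and 0.08 and in MMTV-Cre transplant 1 at 0.07 and 0.07. The parous tumour was at 0.02 and 0.02, and the remaining 3 tumours lay between -0.01 and 0.01 on both sides. The right flank exceeded the left by 0.01 ± 0.02 (SD, n = 9), also without the library labelled MMTV-Cre transplant 2 (0.01 ± 0.02, SD, n = 8), and by 0.07 at most, in MMTV-Cre transplant 5. In 7 of the 8 tumours with a low Trp53 run both flanks stood above -0.25, MMTV-Cre transplant 3 being the exception.

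**Figure D4:**
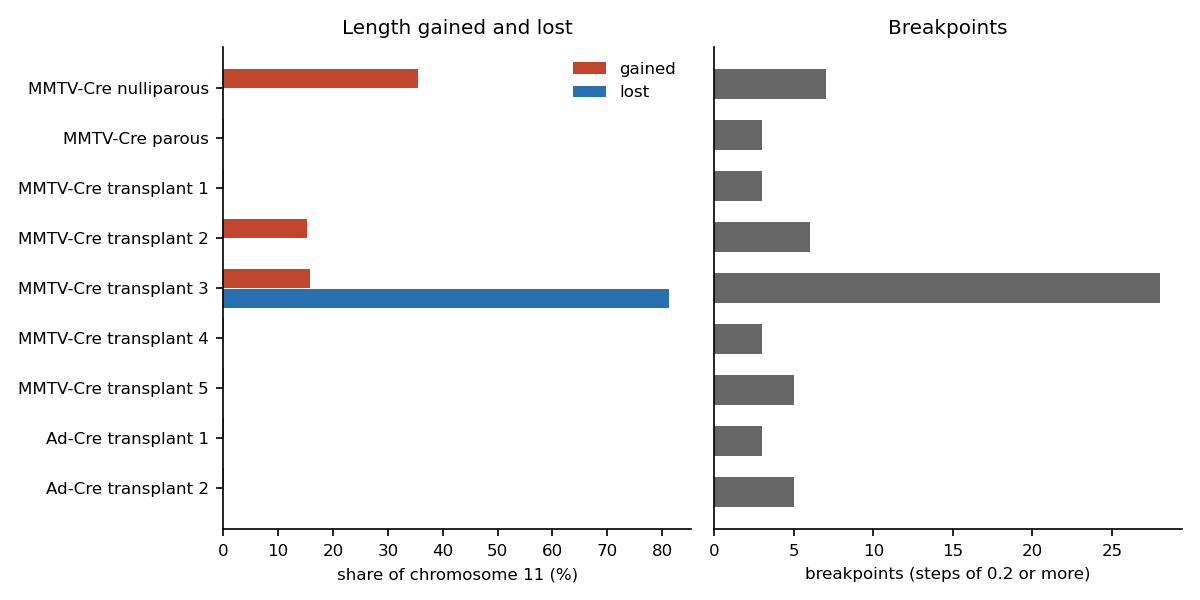
The left panel gives the share of the segmented length of chromosome 11 that was gained or lost in each tumour, in percent, and the right panel the number of breakpoints. MMTV-Cre transplant 3 has 81.2% lost and 28 breakpoints, and the nulliparous tumour has 35.5% gained.

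There were 63 breakpoints on chromosome 11 in the 9 tumours, of which 28 were in MMTV-Cre transplant 3 and 7 in the nulliparous tumour. The library labelled MMTV-Cre transplant 2 had 6, MMTV-Cre transplant 5 and Ad-Cre transplant 2 had 5 each, and the other 4 tumours had 3 each. The mean was 7 ± 8.02 (SD, n = 9), and 4.38 ± 1.60 (SD, n = 8) without MMTV-Cre transplant 3. Without the library labelled MMTV-Cre transplant 2 it was 7.13 ± 8.56 (SD, n = 8). The probe before a breakpoint and the probe after it were a median of 2164 bp apart, and at most 16617 bp. Most breakpoints outside MMTV-Cre transplant 3 bounded short segments: between segments of at least 100 probes on both sides there were 15, with 9 in MMTV-Cre transplant 3, 5 in the nulliparous tumour, while 1 came from the library labelled MMTV-Cre transplant 2.

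As a whole chromosome, chromosome 11 had the second lowest median of the 19 autosomes in MMTV-Cre transplant 3, at -0.30, above chromosome 2 at -0.39. In the nulliparous tumour it ranked 16th from the lowest, at 0.15. In the other 7 tumours its median was between -0.04 and 0.10, at ranks 4 to 15. On chromosome 11 a mean of 9.03% ± 27.1 (SD, n = 9) was lost and 7.46% ± 12.5 (SD, n = 9) was gained. Without MMTV-Cre transplant 3 the lost share was 0.00436% ± 0.00809 (SD, n = 8), and without the library labelled MMTV-Cre transplant 2 it was 10.2% ± 28.7 (SD, n = 8). The gained share was 6.42% ± 12.9 (SD, n = 8) and 6.48% ± 13.0 (SD, n = 8) in the same order.

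Because the files name no build and pair no probe with a gene, the genes of the altered stretches were taken only by their order in a gene table of another assembly, GRCm38.p6. A list of 38 growth signalling and tumour suppressor genes was drawn up for chromosome 11, which has 1609 coding genes there. That all 38 lie on it follows from this choice. Centromeric of Trp53 are 9 of them, beginning with Nf2, a suppressor of growth at cell contacts, and Egfr, a receptor tyrosine kinase, and ending with Aurkb, a mitotic kinase. Telomeric of Trp53 are 28. They begin with Crk, an adaptor protein, Nf1, a negative regulator of Ras, and Ppm1d, a phosphatase that dampens p53 signalling.

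Further along the chromosome follow Erbb2, a receptor tyrosine kinase amplified in human breast cancer, Top2a, which untangles DNA, Stat5a and Stat3, transcription factors of cytokine signalling, and Brca1, which acts in DNA repair. Nearer the telomere lie Sox9, a transcription factor, Grb2, an adaptor that links receptors to Ras, Birc5, which acts in mitosis and cell survival, and Rptor, a subunit of the growth regulator mTORC1. The last of the list are Fasn, which makes fatty acids, with 24 coding genes after it, and Csnk1d, a casein kinase, with 21 after it. Trp53 itself has 1020 coding genes after it. Which of these genes lie inside a segment was not determined, so no copy number is given for any of them.

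The study design sets Ad-Cre beside MMTV-Cre tumours, and transplanted beside other MMTV-Cre tumours. The chromosome and the start of the distal block were chosen on the ratios of these same tumours, so the block levels of the groups are described here without a test. Before the distal block the Ad-Cre tumours were at 0.02 ± 0.04 (SD, n = 2) and the MMTV-Cre tumours at -0.01 ± 0.16 (SD, n = 7), a difference of 0.03. In the distal block they were at 0.10 ± 0.15 (SD, n = 2) and 0.27 ± 0.39 (SD, n = 7), a difference of -0.17. The distal block minus the rest differed by -0.20. In each of these comparisons the groups overlapped, and the differences were 0.02, -0.14 and -0.16 when the library labelled MMTV-Cre transplant 2 was left out.

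Within the scan day that held both models, with 2 tumours of each, the differences were -0.08, 0.04 and 0.12. Each has the opposite sign to the value over all tumours. The MMTV-Cre tumours of that day were the nulliparous and the parous one, and both Ad-Cre tumours were transplants. Model and transplantation thus cannot be told apart within that day. The difference before the distal block was also below 0 without MMTV-Cre transplant 3, at -0.02, without Ad-Cre transplant 1, at -0.0016, and with centring on the mode, at -0.04.

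The 5 MMTV-Cre transplants were at -0.05 ± 0.16 (SD, n = 5) before the distal block and the 2 other MMTV-Cre tumours at 0.10 ± 0.10 (SD, n = 2), a difference of -0.15. In it the values were 0.36 ± 0.44 (SD, n = 5) and 0.06 ± 0.03 (SD, n = 2), a difference of 0.30. The distal block minus the rest was 0.41 ± 0.59 (SD, n = 5) and -0.04 ± 0.06 (SD, n = 2), a difference of 0.45. The transplant values include MMTV-Cre transplant 3, and without it the 3 differences were -0.08, 0.12 and 0.21. Leaving out the library labelled MMTV-Cre transplant 2 gave -0.15, 0.28 and 0.43. No scan day held both kinds of MMTV-Cre tumour, so scan day and kind cannot be told apart here.

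In windows of 100 kb, limma with Benjamini-Hochberg adjustment called 0 of 1184 windows of chromosome 11 between Ad-Cre and MMTV-Cre tumours, where 0% of 23351 autosomal windows were called. At an unadjusted p under 0.05 the counts were 0 on chromosome 11 and 601 in all. Between MMTV-Cre transplants and other MMTV-Cre tumours limma also called 0 windows of chromosome 11, beside 0% in all. At an unadjusted p under 0.05 there were 96 on chromosome 11, or 8.11%, and 853 in all, or 3.65%. Neighbouring windows lie in the same long segments, so they are not independent, and these shares were not tested against each other. The count of 96 rested on single tumours and on the centring. Without the nulliparous tumour, which leaves the parous tumour alone, the median difference on chromosome 11 was -0.06 in place of -0.13. The count was 38 (3.21%, beside 4.10% in all) without the library labelled MMTV-Cre transplant 2. Centring on the mode gave 24 (2.03%, beside 3.54%) and leaving out MMTV-Cre transplant 4 gave 48 (4.05%, beside 2.96%). It was 135 (11.4%, beside 4.41%) without MMTV-Cre transplant 1 and 129 (10.9%, beside 2.75%) without MMTV-Cre transplant 5. Normexp gave 129 (10.9%, beside 3.79%), and scan day as a random block gave 214 (18.1%, beside 9.72%).

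Against the pool, the contrast that chose the chromosome, windows are given without a test. Of the 1184 windows, 67 had the same sign in 9 of 9 tumours, or 5.66%, beside 15.2% of all autosomal windows. The highest of them was chr11:3000001-3100000, at 0.40 ± 0.08 (SD, n = 9) with tumours from 0.25 to 0.49. The next was chr11:116200001-116300000, where the mean of 0.33 ± 0.35 (SD, n = 9) rested on MMTV-Cre transplant 3 at 1.17 and the median was 0.22. The lowest were chr11:92300001-92400000 at -0.23 ± 0.15 (SD, n = 9) and chr11:41900001-42000000 at -0.20 ± 0.13 (SD, n = 9), again with MMTV-Cre transplant 3 the most extreme at -0.60 and -0.50.

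Short loci that stood apart in several tumours bounded many of the remaining breakpoints, and were picked after the segments had been seen. Their levels are given relative to 200 probes on each side. At chr11:116603960-116631530, 27.6 kb with 13 probes, the parous tumour was at -3.15, or 11.2% of its flanks. MMTV-Cre transplant 3 was at -0.96 and Ad-Cre transplant 1 at -0.06. In MMTV-Cre transplant 3 the flanks were amplified, at 1.12, and the locus itself was at 0.16. The other 6 tumours were above their flanks, from 0.17 in MMTV-Cre transplant 4 to 1.58 in MMTV-Cre transplant 5 and 1.59 for the library labelled MMTV-Cre transplant 2. The locus thus ran from 11.2% to 302% of its flanks, and the pool's own signal there was 0.316 to 0.357 of its autosomal median.

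At chr11:103366947-103389304, 22.4 kb with 12 probes, 6 tumours were above their flanks by 1.44 to 2.76, all of them transplants. The nulliparous and parous tumours were at 0.10 and the library labelled MMTV-Cre transplant 2 at -0.03. The locus was bounded from high segments in 5 of the 6, so the gap to these 3 partly follows from the choice. The SD between probes was 1.39 to 1.85 in the 6. The pool signal there was only 0.0798 to 0.134 of its autosomal median, and between 9 and 11 of the 12 probes were measured. At chr11:74177567-74199333 with 15 probes, 7 tumours were below their flanks, from -0.19 to -0.68, and the nulliparous and parous tumours were at 0.05 and 0.01.

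The first 35 probes of the chromosome, chr11:3030764-3102080, were above their flanks by 0.28 to 0.45 in 7 tumours. They were at -0.09 in the nulliparous tumour and in MMTV-Cre transplant 3, the tumours in which the flanking stretch was itself gained. The absolute level of these probes was between 0.26 and 0.49 in all 9 tumours, and the pool signal was 11.6 to 13.0 times its autosomal median.

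The split of the tumours at chr11:103366947-103389304 was also present at single probes spread along the chromosome. For 168 probes the pool signal was under 0.15 of its autosomal median on all 9 arrays, which uses the pool channel alone. The tumour signal at these probes reached 0.3 of its own autosomal median at 26.8% of them in MMTV-Cre transplant 1, 25.6% in MMTV-Cre transplant 3, 26.8% in MMTV-Cre transplant 4 and 41.7% in MMTV-Cre transplant 5. It did so at 33.3% in Ad-Cre transplant 1 and 44.6% in Ad-Cre transplant 2. The share was 1.79% for the nulliparous tumour, 0% for the parous tumour and 6.55% for the library labelled MMTV-Cre transplant 2. The 6 transplants and these 3 tumours did not overlap.

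The same split held on the other autosomes, where 4440 such probes gave 3.13% to 12.8% in the 3 tumours and 26.1% to 47.2% in the 6, so it is not particular to chromosome 11. Both sides of the split had tumours from 2 of the same scan days. The dim probes were 0.328% of the probes here and 0.515% on the other autosomes. Their part in the levels above was not tested.

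**Figure D5:**
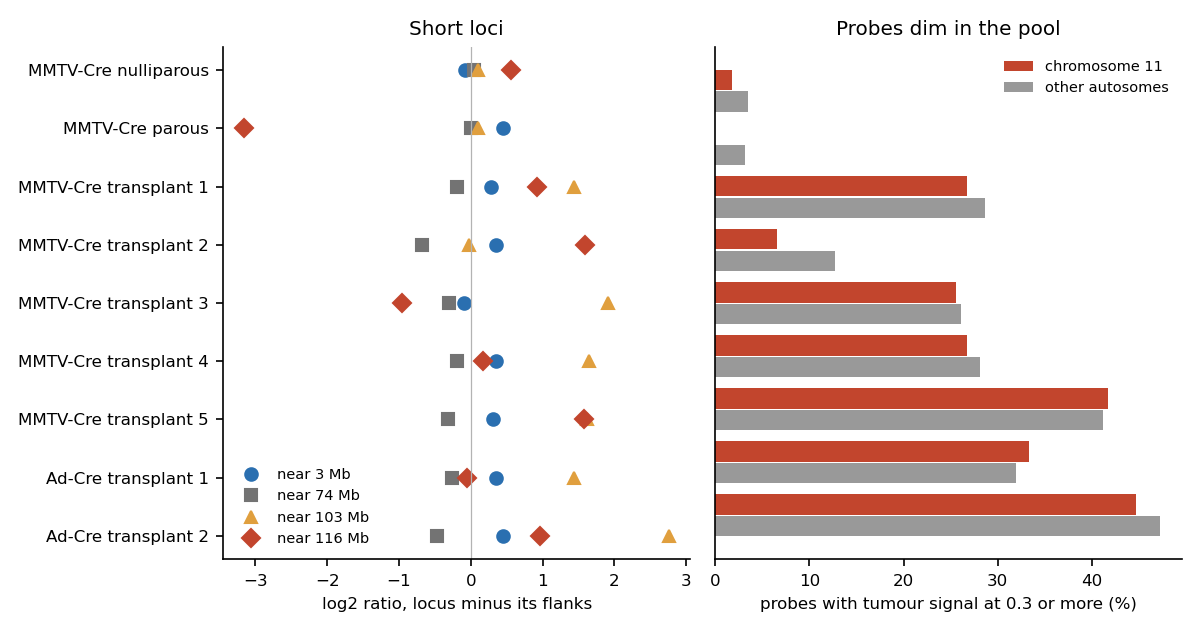
In the left panel the horizontal axis is the log2 ratio of each of 4 short loci minus its flanks, with 1 row per tumour. In the right panel bars give the share of probes dim in the pool whose tumour signal was 0.3 of the autosomal median or more, in percent, on chromosome 11 and on the other autosomes. The nulliparous and parous tumours and the library labelled MMTV-Cre transplant 2 have shares of 0% to 6.55% on chromosome 11, and the other 6 tumours 25.6% to 44.6%.

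Single high probes were gathered in blocks as well. In 6 windows of 1 Mb at least 4% of probes stood over 0.5 above the window's median in 5 or more of the tumours. These windows lay at 18 to 19, 30 to 32, 57 to 59 and 89 to 90 Mb. In the last of them the share was 11.1% in Ad-Cre transplant 2, 9.28% in MMTV-Cre transplant 3, 8.68% in MMTV-Cre transplant 5, 7.49% in MMTV-Cre transplant 4, 7.19% in Ad-Cre transplant 1 and 5.69% in MMTV-Cre transplant 1. It was 0.299% in the nulliparous and parous tumours and 0% for the library labelled MMTV-Cre transplant 2. In contrast, the window from 58 Mb did not split the tumours this way. There the library labelled MMTV-Cre transplant 2 was at 4.44%, above MMTV-Cre transplant 4 at 4.25%, while the nulliparous tumour was at 2.51% and the parous tumour at 0%.

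Some boundaries of segments recurred at the same places. Counted at any size of step and joined within 100 kb, they fell at 79 places, of which 12 were shared by at least 3 tumours and 6 by at least 5. Of these 6, 3 are the edges of short loci described above, at the first probes of the chromosome, near 103366947 and near 116603960. Low stretches between shared boundaries were picked after the segments had been seen, so their low level follows in part from the choice. A stretch from 36025579 to 43066841 lay below its flanks in 9 of 9 tumours, by 0.12 ± 0.04 (SD, n = 9). A stretch from 90186322 to 93635514 lay below its flanks in 8 of 9 tumours, with a mean of -0.08 ± 0.05 (SD, n = 9).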

How the data were processed

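The submitters' processing notes and the file headers give Agilent Feature Extraction 10.5.1.1 and array design 027414. The deposited processed signals are intensity values of each channel that the authors' software background-subtracted and dye-normalised, per the file headers. The deposited median signals are intensity too. The authors' ratios are log10 values of tumour over pool, and the deposited series table holds them rounded.

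Processed signals were turned into a log2 ratio per spot and centred on the median of the autosomes. Outlier spots, and spots that in the pool channel were not well above background, were left out. Spots of a probe were averaged. Segments came from PELT on medians of 5 probes (penalty factor 10, at least 2 bins). Windows of 100 kb with at least 3 probes entered limma 3.58.1 (R 4.3.3) with a threshold of 0.05 on the adjusted p. Block levels are described without a test, in place of a planned exact permutation test, because the chromosome was chosen on them. Scripts were tested on simulated data. Alternatives covered background, normalisation, centring, filters, block limits, segmentation, windows, scan day and single tumours.

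The members and lists were chosen with earlier results of these data known. Named segments were those at 1 or more or -1 or less, the largest step and the longest called segment per tumour. Named windows were the highest and lowest with one sign in 9 of 9 tumours, at most 1 per 10 Mb, which 2 high and 4 low windows met. Python 3.11.15, numpy 2.4.6, pandas 2.3.3, numba 0.67.0 and matplotlib 3.10.9 were used. Sequences are not used here.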

Additional observations from a re-analysis of the deposited data

Results flagged for a closer look

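Within groups of 5, 7 and 9 tumours, 21 sets of values were checked for a highest or lowest tumour far from the next. Chance alone gives about 1 in 20 such sets, but the chromosome was chosen on these values and the sets overlap, so that rate is no yardstick here. As a description, 14 values stood apart. MMTV-Cre transplant 3 accounts for 13 of them. Its lost share of 81.2% stood apart among the 5 MMTV-Cre transplants, the 7 MMTV-Cre tumours and all 9 tumours, with the next tumour at 0.0183%. Its 28 breakpoints stood apart in the same 3 sets, next to 6 or 7. Its level between the Trp53 interval and the distal block, at -0.317, its distal level, at 1.07, and its distal block minus the rest, at 1.40, stood apart among 7 and among 9 tumours. Its level centromeric of the Trp53 interval, at -0.333, stood apart among all 9. The nulliparous tumour's gained share of 35.5% stood apart among all 9 tumours, next to 15.8%.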

How the results depend on the processing

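No paired analysis was possible because the labels pair no tumours and replicates were numbered in accession order. Across 15 results and 271 values under alternatives, 8 changed sign. Of these, 2 were means that moved by less than their SD: the centromeric level, from -0.0244 to 0.0142 without MMTV-Cre transplant 3, and the level from the Trp53 interval to the distal block, from 0.0235 to -0.0043 with centring on the mode. The other 6 were Ad-Cre minus MMTV-Cre differences. The Ad-Cre minus MMTV-Cre difference before the distal block was -0.0422 with centring on the mode and -0.0799 within the scan day that holds both models. Leaving out single tumours gave -0.0240 to 0.0589. Within that scan day the distal difference was 0.0435 and the difference of both levels 0.123. The causes were not tested. The windows called on chromosome 11 stayed at 0 in both group comparisons under every alternative that left at least 2 tumours in each group. Over all autosomes, 149 windows, or 0.638%, were called between the models within the scan day that holds both. Model cannot be told apart from transplantation within that day. Scan day as a random block also gave 0 on chromosome 11. No scan day held both kinds of MMTV-Cre tumour, so that block could not separate day from kind. The mean distal level ranged from 0.129 without MMTV-Cre transplant 3 to 0.359 with normexp, which put that tumour's own distal level at 1.56 in place of 1.07. The mean lost share ranged from 0.00436%, without that tumour, to 10.8%, and the gained share from 3.50% to 12.4%. The mean number of breakpoints ranged from 3.78 to 11.6. Leaving out the library labelled MMTV-Cre transplant 2, or MMTV-Cre transplant 3, to describe levels, shares and breakpoints was chosen after seeing the data. Locus levels where the pool is dim rest on low signal over background.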
